A study of Homo sapiens with 8 samples.

Results

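The genes described here are 10 imprinted genes that act on growth, H19, MEG3, DLK1, CDKN1C, PEG3, PEG10, MEST, NNAT, PLAGL1 and GRB10, taken as a named list out of 58217 genes with a matched transcript. All 10 were found in the transcript estimates, 9 passed the filter on low counts that left 18201 genes for testing, and PEG3 did not. IGF2 was left out of the list. The cells were oligodendrocyte precursor cells (OPCs) derived from the human embryonic stem cell line H9, an established line, and kept for a short time on 1 of 3 coatings before messenger RNA was sequenced. Matrigel, the control coating, is a basement membrane extract from a mouse tumour, with 2 libraries. VN is recombinant vitronectin, an adhesive protein of plasma and matrix, with 3 libraries. VNP2 is a designed vitronectin-derived peptide carrying the RGD cell attachment motif and fused to a mussel adhesive protein, with 3 libraries. The cells of all 3 groups came from the same line and the same differentiation with LDN193189, SB431542, retinoic acid and SAG, and SOX10 was not overexpressed in them.

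An imprinted gene is transcribed mainly from the copy inherited from the mother or mainly from the copy inherited from the father, because a control region carries DNA methylation on only that or the other copy. Many paternally expressed genes favour growth of the fetus and placenta, and many maternally expressed genes restrain it. In neural tissue several of them act in progenitor cells, where DLK1 and CDKN1C are known for their parts in self-renewal and cell cycle exit. Read counts as used here do not separate the parental copies, so every value below is the sum over both. In bulk libraries, fewer cells of a type and less RNA per cell cannot be told apart.

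The genes lie in separate domains of the GRCh38 genome, each with its own neighbours. H19 (ENSG00000130600.18, chr11:1995176-2001470, minus strand) and CDKN1C (ENSG00000129757.13, chr11:2883213-2885773, minus strand) share a gene-rich region of chromosome 11. DLK1 (ENSG00000185559.14, chr14:100725705-100738224, plus strand) and MEG3 (ENSG00000214548.16, chr14:100779410-100861031, plus strand) are neighbours on chromosome 14. PEG10 (ENSG00000242265.5, chr7:94656325-94669695, plus strand), MEST (ENSG00000106484.15, chr7:130486171-130506465, plus strand) and GRB10 (ENSG00000106070.18, chr7:50590063-50793462, minus strand) stand in 3 domains of chromosome 7. PLAGL1 (ENSG00000118495.19, chr6:143940300-144064599, minus strand), PEG3 (ENSG00000198300.13, chr19:56810077-56840728, minus strand) and NNAT (ENSG00000053438.9, chr20:37521206-37523693, plus strand) each have a domain of their own.

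Small RNAs lie within the annotated spans of H19, MEST and MEG3, and their mature sequences are shown for that reason. The messenger RNA libraries did not measure the mature forms. Sequences are from RefSeq (GRCh38.p14), 5′ to 3′, with the seed, bases 2 to 8, in capitals. No seed was shared between them. Of these, miR-2392 lies before the main group of MEG3 starts, which begins at chr14:100826098. MEG3-226, whose start lies before miR-2392, held 0% of the estimated MEG3 level in every library. The H19-hosted pair comes from chr11:1996759-1996831 on the minus strand, the MEST-hosted pair from chr7:130496111-130496204 on the plus strand, and those within MEG3 from chr14:100852390-100852487 (miR-770) and chr14:100814491-100814574 (miR-2392) on the plus strand.
hsa-miR-675-5p (H19): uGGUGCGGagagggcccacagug
hsa-miR-675-3p (H19): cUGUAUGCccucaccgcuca
hsa-miR-335-5p (MEST): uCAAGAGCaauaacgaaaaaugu
hsa-miR-335-3p (MEST): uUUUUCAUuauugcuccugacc
hsa-miR-770-5p (MEG3): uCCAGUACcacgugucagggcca
hsa-miR-2392 (MEG3): uAGGAUGGgggugagaggug

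The levels spanned a wide range, on the scale of TPM, the share of transcripts scaled to a fixed total, which divides by transcript length and so allows genes to be compared. DLK1, which encodes a membrane protein of the Notch ligand type, was the highest, with a mean of 1282 TPM over the 8 libraries and a range of 1123 to 1413 TPM. Only 100 of the 18201 tested genes had a higher mean. H19, a maternally expressed non-coding RNA, had a mean of 894 TPM (583 to 1128). PEG10, a paternally expressed gene derived from a retrotransposon, had a mean of 875 TPM (737 to 983), and the ranges of H19 and PEG10 overlapped. MEST, a paternally expressed hydrolase-like gene, followed at 664 TPM (638 to 676).

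A middle group held 3 genes. CDKN1C, the maternally expressed inhibitor of cyclin-dependent kinases also called p57, had a mean of 108 TPM (88.0 to 117). GRB10, an adaptor that restrains insulin and IGF receptor signalling and is imprinted by tissue and promoter, had a mean of 80.6 TPM (71.3 to 92.0). PLAGL1, a zinc finger factor known to regulate other imprinted genes, had a mean of 52.1 TPM (46.8 to 57.6). The ranges of CDKN1C and GRB10 overlapped, while those of GRB10 and PLAGL1 did not.

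MEG3, NNAT and PEG3 were low. MEG3, the maternally expressed non-coding RNA of the DLK1 domain, had a mean of 6.16 TPM (5.08 to 6.81), above NNAT, a small membrane proteolipid of developing neurons, at 2.69 TPM (2.06 to 3.54). Within the chromosome 14 domain the DLK1 level was 208 times the MEG3 level, as a ratio of mean TPM. Library by library this ratio was 221 to 234 for Matrigel, 194 to 211 for VN and 197 to 206 for VNP2, so the Matrigel libraries stood above the others.

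PEG3, a paternally expressed zinc finger gene, was at the detection limit. Its estimated counts were 0 and 0 in the Matrigel libraries, 0, 1 and 3 in the VN libraries and 2, 0 and 1 in the VNP2 libraries, 7 counts in all. A count of 0 in 4 libraries allows a level of up to 0.0774 CPM (counts scaled to a fixed total per library), taking 3 counts as the limit and covering counting error only. Of the other genes of the PEG3 domain, ZIM2, which shares exons with PEG3, and MIMT1 had 0 counts in every library and USP29 had 1 count in all. No comparison between coatings was detectable at this depth for these 4 genes.

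**Figure D1:**
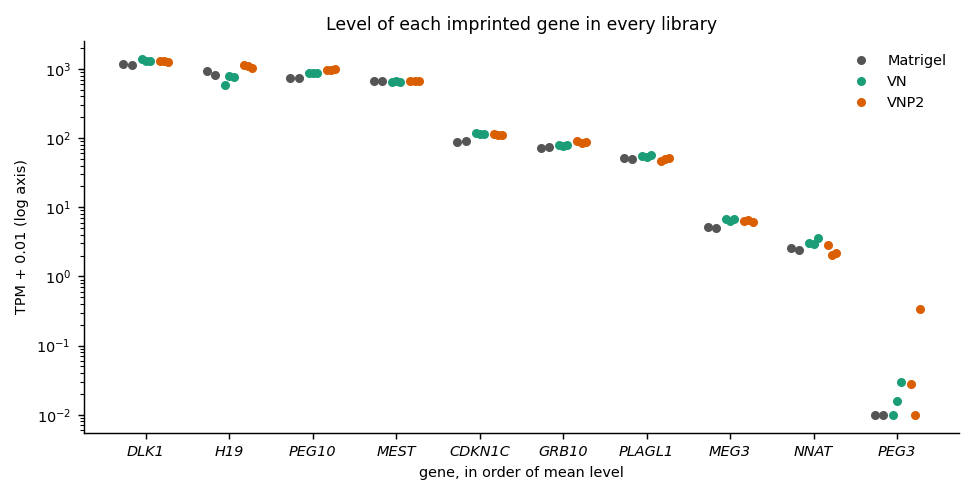
Level of each of the 10 genes in every library, as TPM plus 0.01 on a log axis, with points coloured by coating. DLK1, H19, PEG10 and MEST lie between 583 and 1413 TPM, MEG3 and NNAT between 2.06 and 6.81 TPM, and PEG3 at or near 0.

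The libraries held 37997896 to 39429453 estimated counts each and were therefore close in depth. VN replicate 1 stood apart from the other VN libraries: the median chi-square over genes was 2.35 and 2.75 in its pairs and 0.784 between replicates 2 and 3, where sampling noise alone gives 0.455. No pair of libraries of a group held identical values. OLIG1 and OLIG2, transcription factors used here as OPC markers, were present on every coating, at mean levels of 48.2 and 41.3 TPM on Matrigel. SOX10, another such marker, had a mean of 0 TPM on Matrigel and 0.0573 TPM on VNP2. The labels do not say that replicates were separate cultures, so p-values measure the spread between these libraries, which may be technical.

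The first question was whether the coating changed these genes at all. By edgeR's quasi-likelihood test over the 3 coatings, with Benjamini-Hochberg adjustment over all 18201 genes, 5 of 9 tested members changed, where 19.3% of all tested genes did. They were PEG10 (adjusted p = 5.18e-05), H19 (0.00310), CDKN1C (0.00431), GRB10 (0.00588) and MEG3 (0.0380). PLAGL1 (0.0746), MEST (0.0930), DLK1 (0.136) and NNAT (0.255) did not pass. Leaving out Matrigel replicate 2 reduced the count from 5 to 3, while the number over all tested genes fell from 3518 of 18201 to 1910 of 18766.

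On VN against Matrigel 4 of 9 members passed, 3 higher and 1 lower, beside 15.3% of all tested genes (5.66% higher and 9.6% lower). On VNP2 against Matrigel 4 of 9 passed, all higher, beside 16.6% (7.44% higher and 9.13% lower). Between the vitronectin coatings 3 of 9 were higher on VNP2 than on VN, beside 5.1% (3.09% higher and 2.01% lower). The median log2 fold change of the 9 members was 0.14, 0.22 and -0.016 in these comparisons, beside 0.0044, 0.0024 and 0.00073 for all tested genes. Both comparisons with Matrigel share its 2 libraries. Without Matrigel replicate 2 each of them called 2 members in place of 4, beside 6.53% of all tested genes for VN and 8.72% for VNP2. Without Matrigel replicate 3 the VN comparison also called 2, beside 6.33%. Leaving out a Matrigel library thus lowered the calls over the whole table as well.

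**Figure D2:**
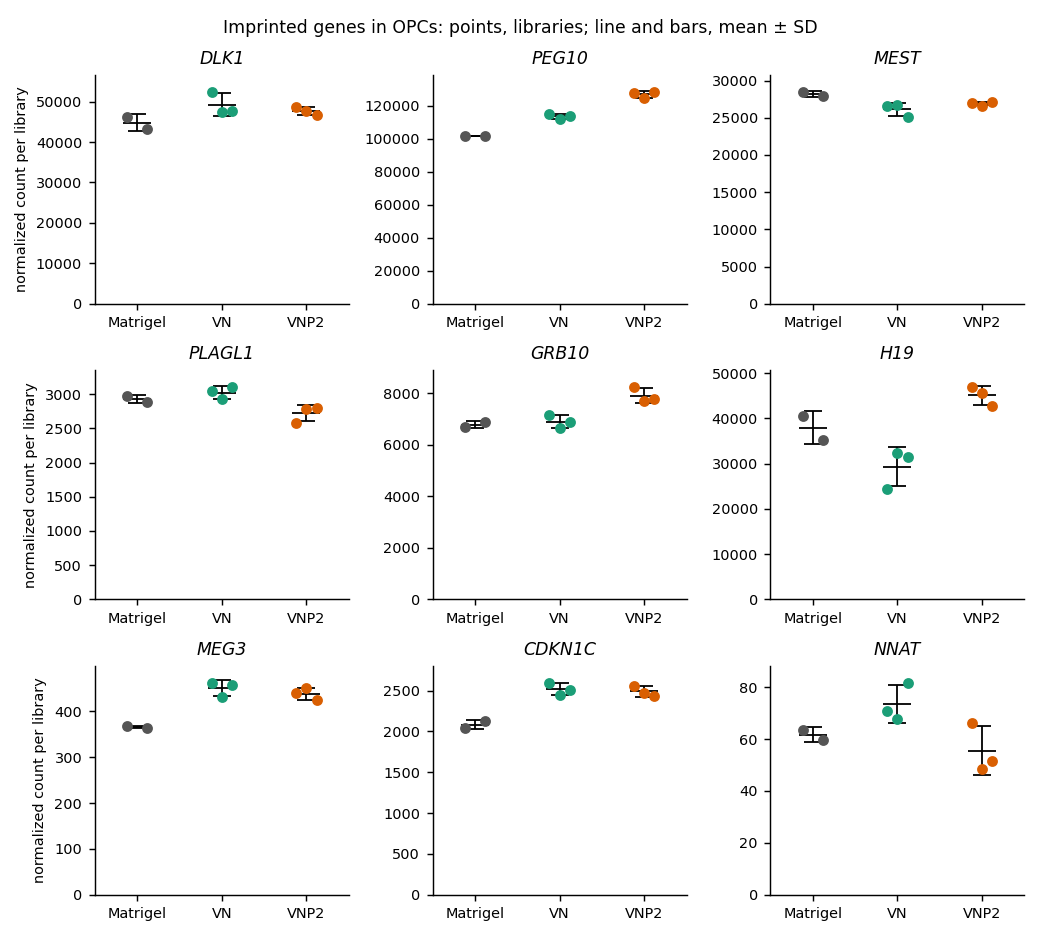
Normalized counts (vertical axis, from 0) of the 9 tested genes in every library by coating, with the mean and SD of each group. PEG10 rises in non-overlapping steps from 101554 to 128699, H19 is lowest on VN, and GRB10 is highest on VNP2.

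The paternally expressed members are described first. PEG10 was the member with the smallest adjusted p in the test over the 3 coatings. Its normalized counts, corrected for library size and transcript length, were 101763 and 101554 for Matrigel, 115215, 111900 and 113893 for VN and 127706, 124773 and 128699 for VNP2. The 3 groups did not overlap, with VN above Matrigel and VNP2 above both.

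The log2 fold change of PEG10 was 0.16 (SE 0.0269, adjusted p = 0.00296, edgeR) on VN against Matrigel. On VNP2 it was 0.32 (SE 0.0270, adjusted p = 1.93e-05) against Matrigel and 0.16 (SE 0.0240, adjusted p = 0.00331) against VN. All 3 calls held under each of 16 alternatives, and 98.0% of PEG10 TPM came from transcripts that start at the annotated main start. SGCE, which encodes a sarcoglycan and is transcribed in the opposite direction from beside the PEG10 start, had log2 fold changes of 0.05 and 0.04 against Matrigel and did not pass (adjusted p = 0.785 and 0.858).

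DLK1 had normalized counts of 46233 and 43254 for Matrigel, 52521, 47556 and 47760 for VN and 48749, 47783 and 46781 for VNP2. All 6 libraries on the vitronectin coatings lay above both Matrigel libraries, and the VN and VNP2 ranges overlapped. Its log2 fold change was 0.14 (95% interval 0.034 to 0.24, adjusted p = 0.0762, edgeR) on VN and 0.09 (-0.011 to 0.20, adjusted p = 0.221) on VNP2 against Matrigel, so neither passed.

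MEST ran the other way, at 28539 and 27956 normalized counts for Matrigel, 26560, 26703 and 25160 for VN and 26993, 26641 and 27149 for VNP2. Both Matrigel libraries lay above all others, by a small margin. Against Matrigel the log2 fold change was -0.11 (95% interval -0.19 to -0.037, adjusted p = 0.0505, edgeR) on VN and -0.07 (-0.14 to 0.0063, adjusted p = 0.210) on VNP2. The VN difference stood at the threshold and was called in 4 of 16 alternatives.

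PLAGL1 had 2976 and 2889 normalized counts for Matrigel, 3042, 2922 and 3104 for VN and 2585, 2786 and 2798 for VNP2. The VNP2 libraries were the lowest and did not overlap either of the other groups. The log2 fold change of VNP2 against VN was -0.15 (95% interval -0.25 to -0.053, adjusted p = 0.0839, edgeR), which did not pass, and against Matrigel it was -0.11 (adjusted p = 0.179).

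NNAT, which lies within an intron of BLCAP, had 63.7 and 59.5 normalized counts for Matrigel, 70.9, 67.7 and 81.8 for VN and 66.4, 48.6 and 51.7 for VNP2. The VN libraries were the highest. No comparison passed, and the interval of the VNP2 against VN log2 fold change, -0.79 to -0.011, was wide at these counts. BLCAP itself, the host gene on the same chromosome 20 domain, was higher on both vitronectin coatings than on Matrigel. Its log2 fold changes were 0.17 (adjusted p = 0.0264, edgeR) and 0.22 (adjusted p = 0.00570), called in 12 and 15 of 16 alternatives.

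The maternally expressed and growth-restraining members moved in more than 1 pattern. CDKN1C had 2043 and 2123 normalized counts for Matrigel, 2598, 2449 and 2504 for VN and 2558, 2474 and 2434 for VNP2. Every vitronectin or VNP2 library lay above both Matrigel libraries, and the VN and VNP2 ranges overlapped. The log2 fold change was 0.27 (SE 0.0469, adjusted p = 0.00354, edgeR) on VN and 0.26 (SE 0.0469, adjusted p = 0.00381) on VNP2 against Matrigel, with both calls kept in 16 of 16 alternatives. Between VNP2 and VN it was -0.02 (95% interval -0.11 to 0.075), which was not called.

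MEG3 showed the same order of groups at a lower level, with 368 and 364 normalized counts for Matrigel, 463, 430 and 458 for VN and 441, 450 and 424 for VNP2. Again no Matrigel library reached the range of the others. The log2 fold change was 0.30 (SE 0.0757, adjusted p = 0.0238, edgeR) on VN and 0.26 (SE 0.0759, adjusted p = 0.0408) on VNP2 against Matrigel. These calls were less firm than those of CDKN1C: they held in 10 and 6 of 16 alternatives, and leaving out either Matrigel library ended both (adjusted p from 0.103 to 0.181). Without the length correction the VNP2 value was 0.15 (adjusted p = 0.302).

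GRB10 was higher on VNP2 than on both other coatings. Its normalized counts were 6692 and 6862 for Matrigel, 7161, 6656 and 6862 for VN and 8233, 7682 and 7786 for VNP2, so that the Matrigel and VN libraries overlapped and the VNP2 libraries stood apart. On VNP2 the log2 fold change was 0.22 (SE 0.0441, adjusted p = 0.00621, edgeR) against Matrigel and 0.20 (SE 0.0392, adjusted p = 0.0164) against VN. On VN against Matrigel it was 0.02 (95% interval -0.073 to 0.12). The call against Matrigel was lost without Matrigel replicate 2 (adjusted p = 0.0632), and that against VN without VN replicate 2, VN replicate 3 or VNP2 replicate 1 (adjusted p from 0.0616 to 0.0745).

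H19 had the largest difference between coatings among the tested members. Its normalized counts were 40481 and 35330 for Matrigel, 24381, 32350 and 31369 for VN and 46950, 45650 and 42663 for VNP2. The 3 groups did not overlap: VN was the lowest and VNP2 the highest. H19 was higher on VNP2 than on VN by 0.62 on the log2 scale (SE 0.0937, adjusted p = 0.00366, edgeR), a 1.54-fold difference called in 16 of 16 alternatives with values from 0.50 to 0.75.

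Against Matrigel, H19 was lower on VN by a log2 fold change of -0.37 (SE 0.104, adjusted p = 0.0373, edgeR), and on VNP2 its log2 fold change was 0.25 (SE 0.105, adjusted p = 0.142), which did not pass. The VN call was lost in 7 of 16 alternatives, among them without Matrigel replicate 2 (adjusted p = 0.273), without Matrigel replicate 3 (0.0640), without VNP2 replicate 2 (0.0519), without VNP2 replicate 3 (0.0502) and under DESeq2 (0.0563). Leaving out VN replicate 1 gave an adjusted p of 0.0119 for VNP2 against Matrigel, with a log2 fold change of 0.25.

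The spread of H19 among VN libraries came in with the length correction. Before it, the estimated counts were 38920 and 38557 for Matrigel, 28679, 27817 and 26309 for VN and 50014, 44458 and 46199 for VNP2, with no overlap and little spread on VN. The mean transcript length assigned to H19 was 2142 bases in VN replicate 1 but 1569 and 1553 bases in VN replicates 2 and 3, beside 1788 to 2023 bases on Matrigel. Without the length correction the log2 fold changes were -0.52 on VN against Matrigel, 0.23 on VNP2 against Matrigel (adjusted p = 0.00891, edgeR) and 0.75 on VNP2 against VN.

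The length moved with the mix of H19 transcripts. The spliced transcript H19-203 held 64.7% of H19 TPM over all libraries and the intron-retaining H19-207 held 22.1%. H19-203 was at 584 and 620 TPM for Matrigel, 481, 393 and 379 TPM for VN and 778, 695 and 701 TPM for VNP2, again with VN lowest and VNP2 highest. H19-207 was at 225 and 101 TPM for Matrigel, 48.1, 240 and 259 TPM for VN and 221, 276 and 211 TPM for VNP2, with VN replicate 1 the lowest of all.

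**Figure D3:**
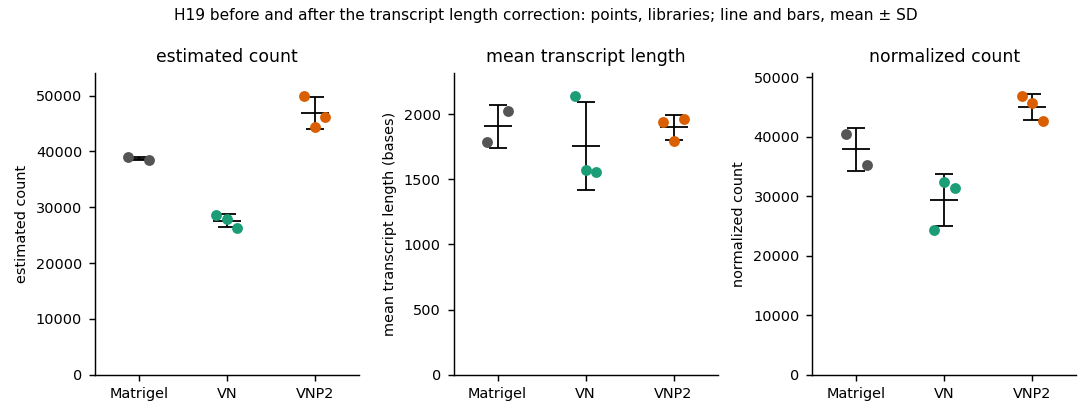
H19 in every library as the estimated count (left), the mean transcript length in bases (middle) and the normalized count after correction for that length (right), with mean and SD by coating. The 3 VN libraries are close in estimated count (26309 to 28679), but VN replicate 1 has the greatest length (2142 bases) and the lowest normalized count (24381).

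The libraries of the compared groups did not overlap for 7 of 9 members on VN against Matrigel (44.4% of all tested genes), 8 of 9 on VNP2 against Matrigel (48.1%) and 5 of 9 on VNP2 against VN (23.6%). With 2 Matrigel libraries such separation was common over the whole table. H19 and PEG10 were the members whose groups were separate in every comparison.

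**Figure D4:**
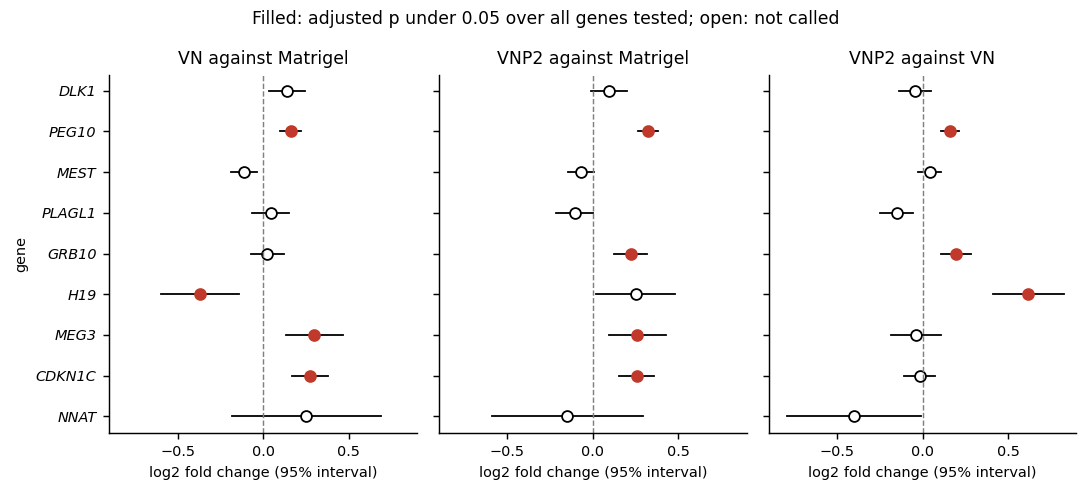
Log2 fold changes of the 9 tested genes (points) with 95% intervals (lines) in the 3 comparisons, filled where the adjusted p over all tested genes was under 0.05. H19 lies at -0.37, 0.25 and 0.62, and PEG10 at 0.16, 0.32 and 0.16.

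Several members have more than 1 promoter, of which only some are imprinted, so the share of each gene's TPM by annotated start was compared. Starts within 500 bases of each other were joined, and 19 shares of MEG3, MEST, PLAGL1 and GRB10 could be tested. By an exact permutation test over all 560 assignments of the libraries (two-sided, smallest p possible 0.00357), 0 of 19 shares passed after adjustment, with a smallest adjusted p of 0.136, and 2 of 19 had an unadjusted p under 0.05.

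Both of these belonged to MEG3. The share that begins around MEG3-225 was 5.23% and 0% for Matrigel, 19.2%, 20.9% and 16.2% for VN and 30.5%, 25.8% and 18.8% for VNP2 (exact permutation p = 0.0107). The share around MEG3-219 was 19.9% and 17.1% for Matrigel, 12.4%, 12.5% and 13.8% for VN and 12.5%, 7.96% and 7.95% for VNP2 (exact permutation p = 0.0143). Both rest on the low counts of MEG3 and were not called.

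MEST used 2 main starts, around MEST-201 (46.3% of its TPM) and around MEST-204 (36.3%). In VN replicates 2 and 3 MEST-204 led, at 50.3% and 51.0%, while in VN replicate 1 it was at 30.6%, near the Matrigel libraries at 33.1% and 28.7% (exact permutation p = 0.254 over the coatings). The largest share of PLAGL1 began around PLAGL1-226 (42.8%), and the upstream start around PLAGL1-210 held 16.4% to 23.3% in single libraries. For GRB10 the start around GRB10-204 held 42.6% and the most upstream one, around GRB10-201, held 24.3%. In PLAGL1 and GRB10 these shares varied by a few percentage points within each coating.

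**Figure D5:**
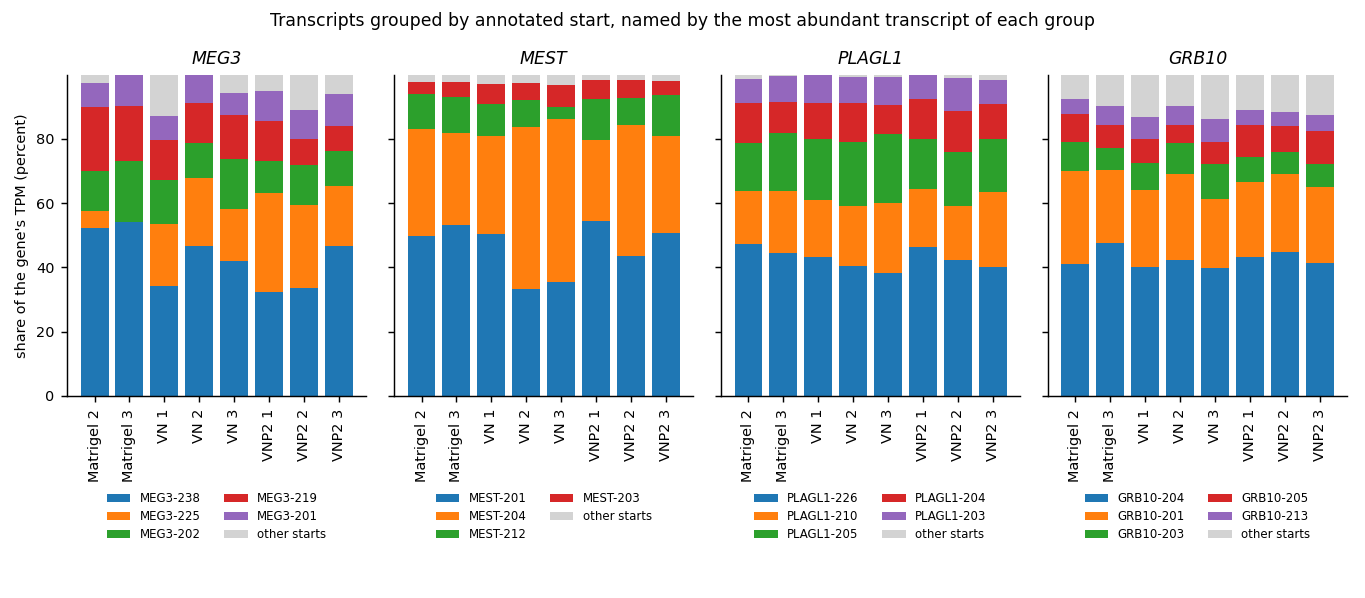
Share of each gene's TPM (percent, vertical axis) by group of annotated starts in every library (horizontal axis) for MEG3, MEST, PLAGL1 and GRB10, with groups under 5% joined as other starts. The MEG3-225 group is at 0% to 5.23% on Matrigel and 16.2% to 30.5% on the other coatings, and the MEST-204 group is highest in VN replicates 2 and 3.

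The 250 bases before a start are shown for 3 of these genes, since their start shares were measured and imprinted starts are often CpG-rich. Whether a start shown here is itself imprinted was not measured. RefSeq (GRCh38.p14) windows matched 5 of 10 members, H19, MEG3, MEST, PLAGL1 and GRB10, with 19 windows in all. Capitals mark CG dinucleotides, and each window is read 5′ to 3′ on the strand of its gene. They are chr14:100825858-100826107 (plus strand) before the main MEG3 start, chr7:130491808-130492057 (plus strand) before MEST-201, and chr6:144064600-144064849 (minus strand) before the upstream PLAGL1 start.
MEG3: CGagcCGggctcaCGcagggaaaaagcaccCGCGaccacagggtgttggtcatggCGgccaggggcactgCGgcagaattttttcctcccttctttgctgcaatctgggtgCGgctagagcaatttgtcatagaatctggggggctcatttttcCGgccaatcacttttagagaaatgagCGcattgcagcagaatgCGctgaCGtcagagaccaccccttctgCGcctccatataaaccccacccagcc
MEST: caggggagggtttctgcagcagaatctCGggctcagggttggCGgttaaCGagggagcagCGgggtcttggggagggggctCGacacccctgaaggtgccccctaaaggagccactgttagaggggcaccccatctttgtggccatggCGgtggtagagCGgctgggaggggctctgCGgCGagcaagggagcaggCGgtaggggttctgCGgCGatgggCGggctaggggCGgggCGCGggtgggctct
PLAGL1: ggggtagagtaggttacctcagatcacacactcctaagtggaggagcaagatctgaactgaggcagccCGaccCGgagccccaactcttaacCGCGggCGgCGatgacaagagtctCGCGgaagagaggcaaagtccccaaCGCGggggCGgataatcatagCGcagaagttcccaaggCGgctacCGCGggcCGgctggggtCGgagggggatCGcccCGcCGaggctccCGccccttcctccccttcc

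The MEG3, MEST and PLAGL1 windows held 13, 16 and 21 CG dinucleotides, beside a median of 11 and quartiles of 3 and 23 over 35116 windows of this length. TGCCGC, the hexamer bound by the imprint-protecting factor ZFP57 when methylated, was searched on both strands and was found in 12.7% of all windows. It was found in 6 of the 19 member windows, some of which overlap. It occurred 1 time in the MEG3 window and 0 times in the MEST and PLAGL1 windows shown. The window before PLAGL1-226, the start with the largest PLAGL1 share, held it 2 times, and a window before GRB10-201 and another MEST window held it 1 time each. Those windows are not shown because they overlap annotated untranslated exons. The RefSeq start of H19 belonged to a start group with 0% of H19 TPM, so its window is not shown.

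The neighbours of the members on each domain are from a list of known imprinted genes. These lists are short, and their counts stand beside the 19.3% of all tested genes that changed across the coatings. In the gene-rich chromosome 11 region 2 of 8 tested genes of the list changed across the coatings, PHLDA2 and CD81. PHLDA2, which restrains placental growth, lies in the same domain as CDKN1C. PHLDA2 had normalized counts of 192 and 239 for Matrigel, 48.7, 38.4 and 62.1 for VN and 156, 105 and 87.1 for VNP2. Its log2 fold change was -2.12 (SE 0.259, adjusted p = 0.000394, edgeR) on VN and -0.89 (SE 0.242, adjusted p = 0.0296) on VNP2 against Matrigel, and 1.22 (SE 0.247, adjusted p = 0.0176) on VNP2 against VN. The first was called in 15 of 15 alternatives, the second in 11 and the third in 13.

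PHLDA2 was thus lower where CDKN1C, of the same domain, was higher, and like H19 it was lowest on VN. CD81, a tetraspanin of the cell surface, was lower on VN by -0.20 (adjusted p = 0.0141, edgeR) against Matrigel and higher on VNP2 than on VN by 0.25 (adjusted p = 0.00519). KCNQ1OT1, the paternally expressed antisense RNA of the same domain, had a log2 fold change of 0.37 on VN (adjusted p = 0.0901) and did not pass.

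In the chromosome 14 domain 0 of 5 tested neighbours of DLK1 and MEG3 passed in any comparison by edgeR's adjusted p. RTL1, a paternally expressed retrotransposon-derived gene, had log2 fold changes of 0.10 and 0.01 against Matrigel, and DIO3, a thyroid hormone deiodinase, had 0.09 and 0.22. RTL1 and DIO3 stood at mean levels of 3.95 and 6.69 TPM on Matrigel, close to MEG3 and far below DLK1. At an unadjusted p under 0.05, 2 of 5 (DIO3 and DIO3OS) stood out on VNP2 against Matrigel and 0 in the other comparisons, and DESeq2 and limma also called 0.

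Around PEG10, 3 of 5 tested neighbours changed across the coatings. CASD1, a sialic acid acetyltransferase, rose by 0.24 and 0.30 on the log2 scale on VN and VNP2 against Matrigel (adjusted p = 0.0150 and 0.00335, edgeR), and PPP1R9A, which encodes the actin-binding neurabin, rose by 0.21 and 0.24 (0.0203 and 0.00750). TFPI2, a protease inhibitor of the matrix, went the opposite way, with log2 fold changes of -0.71 and -1.19 (7.41e-05 and 1.22e-06). The domain therefore held genes that rose with PEG10, SGCE, which did not pass, and TFPI2, which fell in the same order of coatings in which PEG10 rose.

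Around MEST, 2 of 4 tested neighbours changed across the coatings. CPA4, a carboxypeptidase, differed from Matrigel by -1.33 on VN and by -1.61 on VNP2 in log2 fold change (adjusted p = 0.000123 and 2.35e-05, edgeR), far larger than those of MEST. COPG2, a coat protein subunit that overlaps the end of MEST on the other strand, rose by 0.19 on VNP2 (adjusted p = 0.00796). Beside GRB10, DDC, the decarboxylase of dopamine and serotonin synthesis, rose by 0.60 and 0.62 (adjusted p = 0.000967 and 0.000550). Near PLAGL1, 0 of 2 tested neighbours passed, HYMAI among them with 0.08 and -0.36. At an unadjusted p under 0.05 the other, PHACTR2, stood out across the coatings and on VNP2 against VN, and DESeq2 and limma called 0.

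Over all lists, 69 other imprinted genes were matched and 60 tested, of which 16 changed across the coatings, 10 on VN against Matrigel (5 higher and 5 lower), 12 on VNP2 against Matrigel (8 and 4) and 5 on VNP2 against VN (3 and 2). As shares these were 26.7%, 16.7%, 20% and 8.33%, beside 19.3%, 15.3%, 16.6% and 5.1% of all tested genes. Their median log2 fold changes were 0.085, 0.033 and 0.011. Of the 31 tested in domains without a member, 7 changed across the coatings: NDN, SNRPN, MAGEL2, WT1, DIRAS3, GNAS and SNHG14. In the Prader-Willi region of chromosome 15, NDN, a growth suppressor of neurons, rose by 0.30 on VNP2 against Matrigel (adjusted p = 0.000298, edgeR) and by 0.21 against VN (0.00389). MAGEL2 rose by 0.25 and 0.37 on VN and VNP2 against Matrigel (0.0298 and 0.00332), with the VN call held in 11 of 16 alternatives. The splicing factor gene SNRPN fell on VN and VNP2 against Matrigel, with -0.26 and -0.24 (0.00338 and 0.00402). WT1, at low counts, was lower on VNP2 than on VN by -2.06 (0.0427), called in 7 of 15 alternatives, and DIRAS3, GNAS and SNHG14 passed in no single pair of coatings. SNURF, which shares a transcript with SNRPN so that reads may be split between them, had 0.90 on VNP2 (0.0496), called in 10 of 16 alternatives, and 0.08 (0.830) without the length correction.

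Factors that write, keep or remove imprints were also compared, from a list of 20 with 15 tested, of which 7 changed across the coatings, beside 19.3% of all tested genes. The DNA methyltransferase gene DNMT3B rose by 0.25 on VN and 0.41 on VNP2 against Matrigel (adjusted p = 0.00747 and 0.000243, edgeR). DNMT3A rose by 0.17 and 0.23 (0.0198 and 0.00303), with the VN call held in 12 of 16 alternatives. TET2, which oxidizes methylcytosine, rose by 0.24 and 0.28 (0.00393 and 0.00121), and TET3 by 0.16 and 0.14 (0.0145 and 0.0261). ZNF445 passed on VN (0.17), and CTCF, which binds the H19 control region, and DNMT1 passed on VNP2 (0.15 and 0.16), each in 11 of 16 alternatives. DNMT1 was at 0.07 on VNP2 without the length correction (adjusted p = 0.310), and leaving out either Matrigel library ended both the CTCF and the DNMT1 call. The TET3 call held in 14 of 16 alternatives on VN and 9 of 16 on VNP2, and was also lost without either Matrigel library. UHRF1, the partner of DNMT1, was lower on VN (-0.33, adjusted p = 0.0319) but did not pass across the coatings (0.0595). Its VN call held in 12 of 16 alternatives, and with limma on the authors' normalized counts the value was -0.03 (adjusted p = 0.629). Without Matrigel replicate 2 the UHRF1 value was -0.22 (0.272). ZFP57 was at 0.0756 TPM or below as a group mean on every coating.

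GRB10 acts on the insulin and IGF receptors, and 12 of these partners were tested, of which 5 changed across the coatings, beside 19.3% of all tested genes. The adaptor gene IRS1 differed from Matrigel by -0.61 on VN and by -0.41 on VNP2 in log2 fold change (adjusted p = 4.21e-06 and 4.09e-05, edgeR), and the receptor gene IGF1R had -0.35 and -0.40 (3.36e-05 and 7.57e-06). NEDD4, the ubiquitin ligase known to bind GRB10, had -0.31 and -0.37 (0.00354 and 0.000816), and IRS2 had -0.30 on VN (0.0124). INSR, the insulin receptor gene, rose by 0.23 on VNP2 (0.0199), the coating on which GRB10 was highest. The INSR call held in 12 of 16 alternatives. AKT1 passed as lower on VN (-0.13) and RPS6KB1 as lower on VNP2 (-0.24), but neither passed across the coatings (0.0633 and 0.0543). These calls held in 7 and 9 of 16 alternatives, with adjusted p up to 0.253 and 0.217 without Matrigel replicate 2.

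CDKN1C belongs to the CIP/KIP inhibitors, and its relatives and the D cyclins did not all share its direction. CDKN1A, the p21 gene, stood at -0.86 and -0.93 (log2 fold change) on VN and VNP2 against Matrigel (adjusted p = 6.01e-07 and 2.26e-07, edgeR), while CDKN1B, the p27 gene, rose by 0.20 on VN (0.0409). The D cyclin genes that passed were lower: CCND1 had -0.40 on VN and -0.51 on VNP2 (adjusted p = 1.51e-05 and 1.65e-06), and CCND3 had -0.26 and -0.29 (0.0279 and 0.0134). CCND2 was lower on VNP2 than on Matrigel by -0.13 (0.0337) and than on VN by -0.20 (0.00537). In all 4 of 11 tested genes changed across the coatings, beside 19.3%. The calls of CDKN1B on VN and of CCND2 on VNP2 against Matrigel held in 10 of 16 alternatives each. That of CCND3 on VN held in 12 of 16.

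Similarity between genes was measured by Pearson's r of log2 normalized counts, corrected for transcript length, with a small constant added. For each member that changed across the coatings, the most similar genes over the 8 libraries were sought among 12988 tested genes whose normalized counts averaged 100 or more. They were FAM129A (r = 0.971) and PIFO (0.964) for H19, C20orf194 (0.981) and ABL1 (0.973) for MEG3, PLEKHA6 (0.985) and PRR5 (0.974) for CDKN1C, FAM181B (0.991) and MANEAL (0.991) for PEG10, and HCN2 (0.993) and KIRREL2 (0.989) for GRB10. The points share 3 coatings and so are not 8 independent values.

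Markers of cell types moved between the coatings beside these genes. The summed level of 8 neuron markers was 728 to 760 TPM on Matrigel, 821 to 875 TPM on VN and 888 to 909 TPM on VNP2, which is the order of PEG10. The 8 OPC markers summed to 158 to 159, 201 to 214 and 201 to 209 TPM, so the VN and VNP2 sums overlapped. Single OPC markers did not all follow this sum. By edgeR, 3 of 7 tested were higher on VN and 6 on VNP2 against Matrigel, beside 5.66% and 7.44% of all tested genes. On VNP2 against VN 1 of 7 was higher, beside 3.09%. The 10 mesenchymal markers summed to 563 to 574, 633 to 665 and 566 to 596 TPM. The 8 proliferation markers summed to 1515 to 1538, 1667 to 1721 and 1562 to 1587 TPM. Both sums were highest on VN, where H19 was lowest. Sums of TPM lack the scaling between libraries used in the tests. By edgeR, 2 of 8 proliferation markers were higher and 0 lower on VN against Matrigel, beside 5.66% of all tested genes higher. On VNP2, 0 were higher and 3 lower against Matrigel (9.13% lower), and 5 were lower against VN (2.01%). Single mesenchymal markers went both ways: 3 were higher and 2 lower on VN against Matrigel, and 5 higher and 2 lower on VNP2. Of all tested genes, 5.66% were higher and 9.6% lower on VN, and 7.44% were higher and 9.13% lower on VNP2. COL1A2 (log2 fold changes of 0.33 and 0.29), LUM (0.58 and 0.31) and DCN (0.53 and 0.34) were higher on both. LUM was near the threshold on VNP2 (adjusted p = 0.0478, edgeR), and COL3A1 and TWIST1 were called higher on VNP2 only. COL1A1 was lower on both, with log2 fold changes of -0.54 and -1.41 (adjusted p = 0.000392 and 3.00e-07, edgeR), as was PRRX1, with -0.40 and -0.58 (0.0160 and 0.00174).

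The 8 pluripotency markers were at 151 to 157, 139 to 146 and 136 to 140 TPM, and the 8 endothelial markers at 36.9 to 38.4, 33.8 to 40.7 and 35.9 to 38.4 TPM. Muscle and liver are known for several of these imprinted genes. The 10 skeletal muscle markers summed to 7.42 to 10.98 TPM on Matrigel and to 3.63 to 5.29 TPM on the other coatings, with MYOG at 0, and the 10 endoderm and liver markers to 47.7 to 48.5, 52.4 to 58.0 and 61.9 to 67.4 TPM, with 9 of 10 under 1 TPM as a mean over the 8 libraries. Most of that sum was FOXA1, at mean levels of 43.7, 53.1 and 61.7 TPM, while AFP was lower on VN and VNP2, by -2.23 and -2.72 (adjusted p = 0.0253 and 0.0108, edgeR). The 7 neural crest markers summed to 25.4 to 27.1, 25.3 to 27.4 and 35.3 to 36.9 TPM, with 4 of 7 under 1 TPM as a mean. Few genes thus carry this sum. By edgeR, 2 of 4 tested were higher on VNP2 against Matrigel, beside 7.44% of all tested genes. Against VN only NGFR was higher (0.50, adjusted p = 0.000533), beside 3.09%, while TFAP2B had -0.54 and was not called. Across the coatings 6 of 8 tested neuron markers passed, 6 of 7 OPC, 8 of 10 mesenchymal, 5 of 8 proliferation and 5 of 8 pluripotency markers. So did 2 of 6 endothelial, 1 of 5 muscle, 2 of 5 endoderm and liver and 2 of 4 neural crest markers. These counts stand beside 19.3% of all tested genes. The part of these cell types in the differences of H19, PEG10, CDKN1C, MEG3 and GRB10 was not tested.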

How the data were processed

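RNA-seq of 8 libraries was analysed (Matrigel 2, VN 3, VNP2 3). The Matrigel libraries carry replicate numbers 2 and 3, and no other Matrigel library is analysed here. The authors trimmed reads with Trim Galore and quantified transcripts with Salmon against GENCODE v32. The deposited transcript files give estimated counts and TPM. The deposited gene table holds a signal, counts that the authors normalized with DESeq2 (1.27.12 in the submitters' processing notes), and was used only as an alternative. The Salmon version, library type and strand setting are not given in the sources used here, so overlapping genes on opposite strands (MEST and COPG2) may share reads.

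Transcripts were joined to genes through GENCODE v29 (GRCh38), which matched 205225 of 226608 transcripts and 98.8% to 98.9% of estimated counts. Gene totals of the estimated counts, rounded, were tested in edgeR 4.0.16 (R 4.3.3) with TMM scaling, a correction for mean transcript length and quasi-likelihood F-tests on all 8 libraries, after filterByExpr (minimum count 10). Calls were made where the adjusted p was under 0.05. Floors cover counting error only, and intervals the spread between libraries. Alternatives were DESeq2 1.42.0, limma 3.58.1 on log2 of the authors' normalized counts plus 1, other filters and scaling, no length correction, a replicate block, only the pair compared, and each library left out in turn. The fits were tested on simulated data. Start shares were computed in Python.

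The members and gene lists were chosen with earlier results of these data known. Named genes are the members, list genes called in at least 1 comparison (at most 8 of a list) and, for each member changed across the coatings, the 2 most similar genes. Cell type markers are given as sums, and only some of them are named singly. Neighbours named although not called (SGCE, KCNQ1OT1, RTL1, DIO3, DIO3OS, HYMAI, PHACTR2) were chosen after their values were seen.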

Additional observations from a re-analysis of the deposited data

How the results depend on the processing

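Of 429 fold changes of members recomputed under alternatives, 422 kept their direction, 27 lost a call and 12 gained one. The CDKN1C and PEG10 calls and the H19 call on VNP2 against VN held throughout. The 7 reversals were of values near 0 with no call in either: on VNP2 against VN, MEG3 at 0.0050 with limma on the authors' normalized counts, CDKN1C at 0.020 without the length correction and 0.0082 without VN replicate 1 (-0.037 to 0.0082 with each library left out), and DLK1 at 0.0045 without VN replicate 1 (-0.070 to 0.0045); on VN against Matrigel, GRB10 at -0.026 without the length correction, -0.0049 with the replicate block and -0.00044 without VN replicate 1 (-0.00044 to 0.050).

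With each library left out in turn, the members called numbered 3 to 5 across the coatings, 2 to 5 on VN against Matrigel, 2 to 5 on VNP2 against Matrigel and 2 to 3 on VNP2 against VN. The other imprinted genes called numbered 7 to 19, 5 to 13, 7 to 13 and 3 to 11. The lowest were 7 without Matrigel replicate 3 for the first (10% of all tested genes called), 5 without Matrigel replicate 2 or 3 for the second (6.53% and 6.33%), 7 without Matrigel replicate 2 for the third (8.72%) and 3 without VN replicate 2 for the last (3.21%), where 11 without VN replicate 1 was the highest (11%). With these libraries left out, calls over all genes moved in the same direction. The member counts reached 5, 5, 5 and 3 without VN replicate 1, beside 27.4%, 21.5%, 19.9% and 11% of all tested genes. Fitting only the pair gave 2 members on VN against Matrigel, beside 11.6% of all tested genes in place of 15.3%. On VNP2 against VN the other imprinted genes numbered 9 with no filter and 8 with no length correction, in place of 5. All tested genes called there were 4.13% of 31592 with no filter and 6.06% with no length correction, in place of 5.1%.

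Correlations of deviations from the group mean ran from -0.112 to 0.140 for same-numbered libraries and from -0.170 to 0.177 for differently numbered ones. With deviations centred within groups of 2 or 3 libraries, this check cannot decide whether replicate numbers pair the libraries. With the replicate block, members called were 4, 4, 3 and 3, and other imprinted genes on VNP2 against VN were 8. Over all tested genes the block raised the calls to 21.9%, 18.6%, 17.4% and 6.3%, from 19.3%, 15.3%, 16.6% and 5.1%. The block ended the H19 call on VN (adjusted p = 0.0533, edgeR) and the MEG3 call on VNP2 (0.0779) against Matrigel. Of 956 recomputed fold changes of other listed genes that were called, an analysis chosen after seeing the data, 122 lost the call and 0 reversed. The causes were not tested. Depth limits PEG3, NNAT and the MEG3 start shares, and 2 Matrigel libraries limit both comparisons with Matrigel.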
